A study of Mus musculus with 21 samples.

Results

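The genes described here encode enzymes of cholesterol and fatty acid synthesis together with a few of their regulators. The list held 28 mouse genes, chosen by name with earlier results of these data known. Of the 18193 genes with a usable probe set on the array, 27 belonged to the list. Acat2 was not analysed here because no probe set carried its symbol alone. By role, the 27 genes comprised 6 enzymes of the mevalonate steps, 11 enzymes from squalene to cholesterol, 4 genes of sterol regulation and transport, and 6 genes of fatty acid synthesis and desaturation.

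Expression was measured on 21 Affymetrix 430 2.0 arrays, 3 for each of 7 groups of mouse cells, and the stated purpose of the study was to compare the expression of these kinds of cell. AH129-5, AH129-N1 and AH129-NC1 are androgenetic haploid embryonic stem (ahES) cell lines of 129 Sv background, whose single chromosome set is of paternal origin, and only their haploid cells in G0/G1 were collected, by flow sorting. CS1-1 and R1 are diploid embryonic stem (ES) cell lines of 129 Sv background, for which no sort was stated. All 5 ES lines were grown in N2B27 medium, which contains no serum, with 2i (inhibitors of MEK and GSK3) and the cytokine LIF. Mouse embryonic fibroblasts (MEF) had a CD1 background and were grown in DMEM with 10% serum. Round sperm, the haploid cells that follow meiosis, had a 129 Sv background, came fresh from testis and were sorted as the ahES cells were. Each ES line stands for itself only, so haploid cells are represented by 3 lines and diploid ES cells by 2. Ploidy, parental origin of the genome and sorting all differed between the ahES and diploid ES lines and cannot be told apart in this design.

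Cholesterol is built from acetyl-CoA. The mevalonate steps give farnesyl diphosphate, squalene synthase commits it to sterols, and a series of enzymes in the endoplasmic reticulum turns squalene into lanosterol and then cholesterol. The transcription factor SREBP-2, encoded by Srebf2, switches these genes on together when membrane cholesterol is low, while SREBP-1, encoded by Srebf1, acts more on fatty acid genes, and the Insig proteins hold both in the endoplasmic reticulum when sterols are plentiful. SREBP proteins bind sterol response elements, usually beside a CCAAT box bound by NF-Y.

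Promoter sequence was taken from RefSeq (build GRCm38.p6) for 22 of the 28 listed genes, including Acat2. No sequence was matched here for Fdps, Fdft1, Sqle, Stard4, Fads1 and Scd2. In windows from 250 bases before to 50 bases after the start site, searched on both strands, the CCAAT box was found in 19 of 22 genes (86.36%), against 41.06% of the 27025 genes in the table. The GC box GGGCGG was also found in 19 of 22, against 38.2%. The element TCACNCCAC, one form of the sterol response element, was found in Hmgcs1 alone (4.55%, against 1.44% of all genes). These are matches of letters, not measured binding sites, and other forms of the element were not searched. The 200 bases before the start site are shown for Hmgcs1, which opens the mevalonate steps and holds the element, for 3 autosomal enzymes that were lower in ahES cells, and for the X-linked enzymes Ebp and Nsdhl, which were not. Each reads 5′ to 3′ on the strand of its gene, with capitals at TCACNCCAC or at CCAAT, which reads ATTGG on the other strand. Dhcr7 has 3 start sites in the table, and the first one listed with a CCAAT box is shown.
Hmgcs1 promoter, chr13:119690151-119690350, plus strand: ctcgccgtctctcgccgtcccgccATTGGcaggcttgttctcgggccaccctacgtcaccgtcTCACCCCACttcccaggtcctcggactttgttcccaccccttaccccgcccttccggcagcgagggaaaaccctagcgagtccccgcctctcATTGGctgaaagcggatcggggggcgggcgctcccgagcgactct
Msmo1 promoter, chr8:64733579-64733778, minus strand: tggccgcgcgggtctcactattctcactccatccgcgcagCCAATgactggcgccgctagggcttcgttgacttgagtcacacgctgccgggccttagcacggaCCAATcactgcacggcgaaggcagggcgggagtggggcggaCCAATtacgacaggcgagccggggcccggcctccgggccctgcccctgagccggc
Tm7sf2 promoter, chr19:6067851-6068050, minus strand: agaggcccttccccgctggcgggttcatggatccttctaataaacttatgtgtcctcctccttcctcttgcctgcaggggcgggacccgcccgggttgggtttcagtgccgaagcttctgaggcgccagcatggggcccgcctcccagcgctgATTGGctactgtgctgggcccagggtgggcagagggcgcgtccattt
Dhcr7 promoter, chr7:143830014-143830213, plus strand: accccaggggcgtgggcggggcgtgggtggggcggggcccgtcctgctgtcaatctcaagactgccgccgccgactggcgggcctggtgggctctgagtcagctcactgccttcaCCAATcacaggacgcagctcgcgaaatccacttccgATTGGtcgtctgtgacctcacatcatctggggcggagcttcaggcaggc
Ebp promoter, chrX:8193513-8193712, minus strand: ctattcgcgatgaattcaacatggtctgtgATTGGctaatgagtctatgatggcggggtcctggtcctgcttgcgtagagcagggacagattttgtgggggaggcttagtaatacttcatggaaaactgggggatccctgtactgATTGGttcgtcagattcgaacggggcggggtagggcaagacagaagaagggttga
Nsdhl promoter, chrX:72918321-72918520, plus strand: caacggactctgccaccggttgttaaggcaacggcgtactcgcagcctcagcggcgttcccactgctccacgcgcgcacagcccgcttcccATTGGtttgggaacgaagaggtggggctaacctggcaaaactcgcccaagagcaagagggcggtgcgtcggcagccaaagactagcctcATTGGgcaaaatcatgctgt
All 6 windows held a CCAAT box, with 3 in Msmo1, 1 in Tm7sf2 and 2 in each of the others. The Dhcr7 window was chosen for its CCAAT box, and the windows of its other 2 start sites held none.

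Each of the 21 arrays was most similar to another of its own group, and the correlation of arrays within a group, across genes, ran from 0.969 to 0.988. The 7 ES markers lay above background in all 5 ES lines, the 9 measured fibroblast markers lay above background in MEF, and the 7 round spermatid markers lay above background in round sperm. Fibroblast markers were also present in ES cells: their summed signal on the log2 scale was 14.04 to 14.57 in ahES arrays, 14.45 to 14.52 in R1 and 11.37 to 11.68 in CS1-1, against 16.63 to 16.72 in MEF. Round sperm also had 5 of 5 spermatocyte markers above background (summed signal 14.81 to 14.88), and their RNA gave a larger 3' minus 5' difference for Gapdh (0.55 ± 0.16, SD, n = 3) than the other groups, whose means lay between -0.30 and -0.20. A group mean in bulk RNA cannot tell fewer cells of a type from less RNA per cell. All levels below are log2 signals, and all differences are log2 differences with their standard error.

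**Figure D1:**
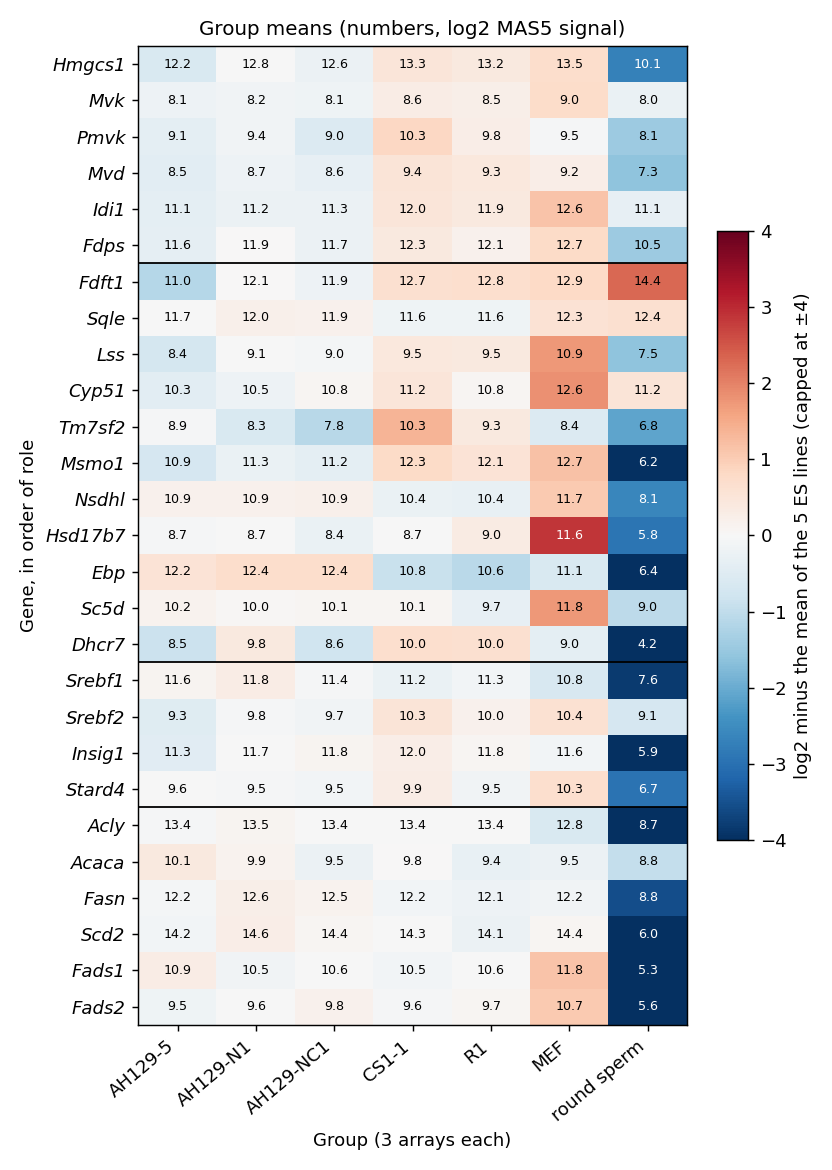
Mean log2 MAS5 signal of the 27 genes (y axis, in order of role) in the 7 groups (x axis, 3 arrays each). Numbers are means and colours show each mean minus the mean of the 5 ES lines, capped at 4 log2 units in either direction; levels compare groups within a gene, not genes with each other. Round sperm were the lowest group for 23 of 27 genes, and MEF were the highest for 14. These shares were 49.1% and 24.4% over the 12891 genes tested between ahES and diploid ES cells. That set holds only genes that passed the filter in an ES line.

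Of the 17 enzymes of the mevalonate and sterol steps, 10 were lower in ahES cells than in diploid ES cells by adjusted p alone (5.16% of all genes were), 4 of them at least 2-fold, and 2 were higher (6.52%). None of the 6 fatty acid genes passed. The question was how haploid cells differ from diploid ES cells in the same medium. The word called is used for genes that changed at least 2-fold with an adjusted p under 0.05. Of the 27 genes, 4 were lower, where 1.35% of the 12891 genes tested were, and 1 was higher, where 3.0% were. The called genes were Tm7sf2, Fdft1, Msmo1 and Dhcr7, which were lower, and Ebp, which was higher. The median difference was -0.31 over the 27 genes and -0.03 over all genes tested. By adjusted p alone, 13 of the 27 passed (11.7% of all genes), 11 of them lower and 2 higher. On simulated data with lines that differ, this fit made more false calls than its adjusted p allows. These counts may therefore hold more false calls than the 0.05 threshold implies. With 1 mean per line, Msmo1 and Ebp passed, while Tm7sf2, Fdft1 and Dhcr7 did not.

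**Figure D2:**
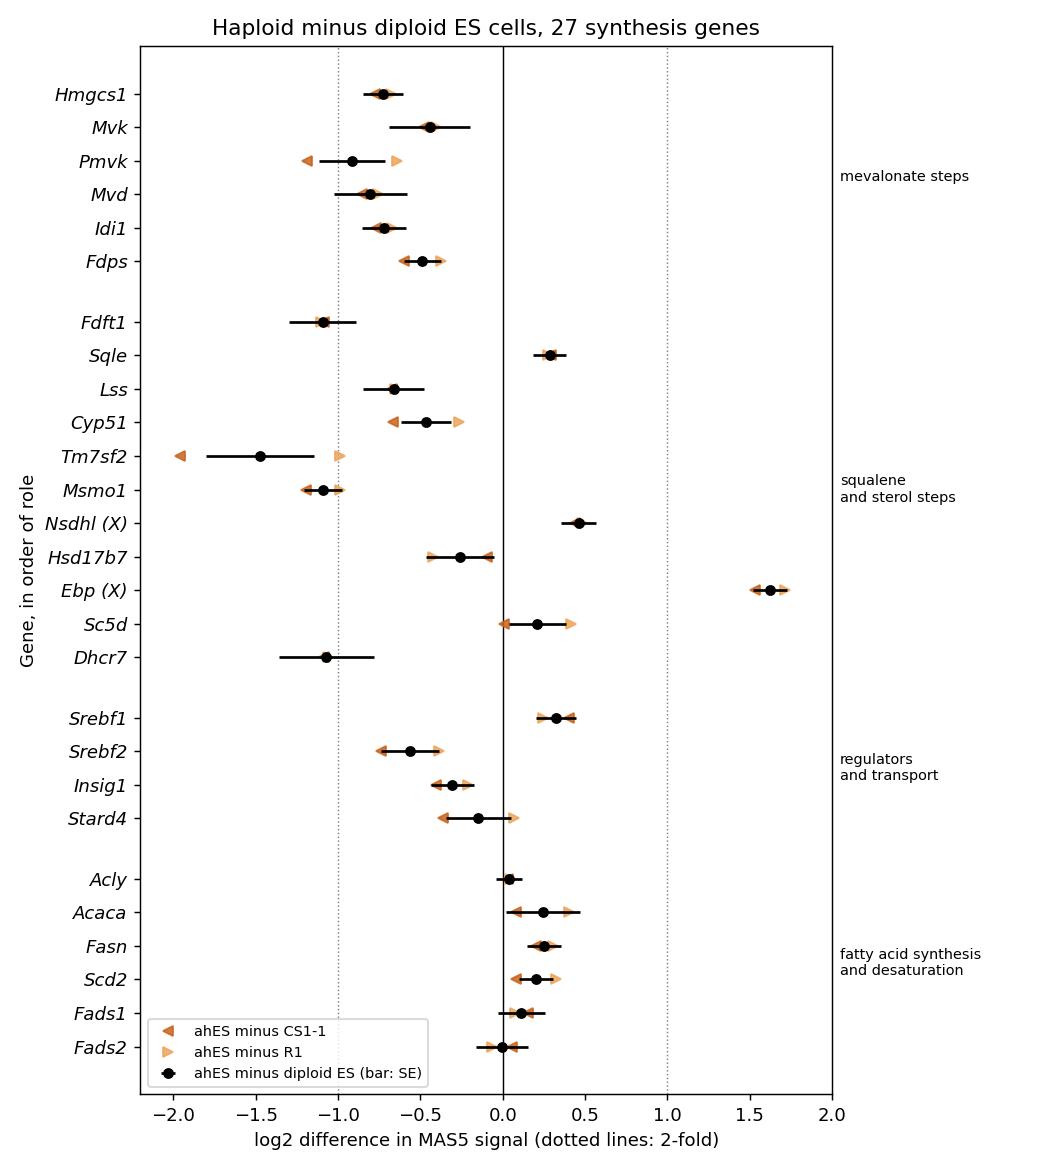
Log2 difference (x axis) of each gene (y axis, in order of role) between ahES and diploid ES cells, with black points for the mean of all lines and bars for the standard error; triangles give the difference of the 3 ahES lines from CS1-1 and from R1 taken alone, and dotted lines mark 2-fold. The 6 mevalonate enzymes all lie left of 0, Ebp lies farthest right at 1.62, and the 6 fatty acid genes lie between -0.01 and 0.25.

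The mevalonate steps showed the most even shift. All 6 enzymes had negative differences (53.4% of all genes did), with a median of -0.72. In all 6, every ahES array lay below every diploid ES array. Over the 27 genes such a gap was found for 11 that were lower (6.83% of all genes) and 3 that were higher (7.21%). None of the 6 mevalonate enzymes reached 2-fold, and 5 of them were lower by adjusted p alone (5.16% of all genes were). Hmgcs1, the synthase that makes HMG-CoA, had levels of 12.21, 12.20 and 12.22 in AH129-5, 12.76, 12.77 and 12.87 in AH129-N1 and 12.61, 12.69 and 12.52 in AH129-NC1. Its diploid values were 13.31, 13.31 and 13.33 in CS1-1 and 13.27, 13.22 and 13.17 in R1. The ahES arrays were thus all low, AH129-5 lowest, and the 2 diploid lines lay close together, with a difference between the kinds of -0.73 ± 0.12 (adjusted p = 0.000291). The other 4 Hmgcs1 probe sets gave differences from -1.09 to -0.82.

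Idi1, the isomerase that makes dimethylallyl diphosphate, ranged from 10.89 to 11.35 over the 9 ahES arrays (median 11.23) and from 11.81 to 12.00 over the 6 diploid ES arrays. The ranges did not overlap, and the difference was -0.72 ± 0.13 (adjusted p = 0.000804). The phosphomevalonate kinase Pmvk differed by -0.92 ± 0.20 (adjusted p = 0.00333). The decarboxylase Mvd differed by -0.80 ± 0.22 (adjusted p = 0.0206). Farnesyl diphosphate synthase, Fdps, differed by -0.49 ± 0.11 (adjusted p = 0.00675). The kinase that opens this stretch, Mvk, had a difference of -0.44 ± 0.25 that did not pass (adjusted p = 0.288).

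From squalene to cholesterol the 11 enzymes were mixed, with 4 called lower (1.35% of all genes), 1 called higher (3.0%) and 6 not called. By adjusted p alone, 5 were lower (5.16% of all genes) and 2 higher (6.52%). Fdft1, squalene synthase, is the first enzyme committed to sterols. Its levels were 10.95, 11.05 and 10.89 in AH129-5, 12.04, 12.11 and 12.19 in AH129-N1, and 11.86, 11.99 and 11.85 in AH129-NC1. Its diploid levels were 12.78, 12.71 and 12.74 in CS1-1 and 12.77, 12.77 and 12.75 in R1. All ahES arrays lay below all diploid arrays, and AH129-5 lay farthest below. Fdft1 fell by 1.09 ± 0.20 on the log2 scale (2.13-fold lower, adjusted p = 0.00107). A second Fdft1 probe set with signal in every ES line had means of 9.89, 11.22 and 11.07 in the haploid lines and of 11.95 and 11.89 in the diploid lines. The remaining pair of probe sets had means of 4.57 to 5.65 in the ES lines and gave differences of 0.13 and -0.10. With the mean of all 4 probe sets, the pair near background included, the difference was -0.56 (adjusted p = 0.271). Without the line AH129-5 it was -0.75, under 2-fold. The call was thus lost when this pair was averaged in and when AH129-5 was left out.

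Tm7sf2, a sterol reductase that acts after lanosterol demethylation, had levels of 8.94, 8.59 and 9.07 in AH129-5, 8.33, 8.03 and 8.50 in AH129-N1 and 7.50, 7.98 and 7.89 in AH129-NC1. It reached 10.21, 10.12 and 10.50 in CS1-1 and 9.40, 9.22 and 9.29 in R1. Each line had its own level, CS1-1 was the highest and AH129-NC1 the lowest, and the kinds did not overlap. Tm7sf2 fell by 1.48 ± 0.33 on the log2 scale (2.78-fold lower, adjusted p = 0.00468). Without CS1-1 the difference was -0.99 (adjusted p = 0.0937).

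Msmo1, the C4-methylsterol oxidase, was the most even of the lower enzymes. Its levels were 10.85, 10.89 and 10.96 in AH129-5, 11.23, 11.25 and 11.38 in AH129-N1, and 11.17, 11.17 and 11.21 in AH129-NC1. They were 12.29, 12.30 and 12.37 in CS1-1 and 12.08, 12.10 and 12.14 in R1. The ahES and diploid arrays were well apart, and Msmo1 fell by 1.09 ± 0.12 on the log2 scale (2.13-fold lower, adjusted p = 1.09e-06). Leaving out AH129-5 (-0.98) or CS1-1 (-0.99), or averaging its probe sets (-0.98), took it just under 2-fold while the adjusted p stayed past the threshold, at 1.04e-05, 9.05e-05 and 0.0289.

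Dhcr7 makes cholesterol from 7-dehydrocholesterol in the last step, and it split the haploid lines. It was at 8.31, 8.52 and 8.71 in AH129-5 and 8.65, 8.40 and 8.71 in AH129-NC1, but at 9.80, 9.48 and 10.01 in AH129-N1. The diploid values were 10.02, 10.05 and 10.05 in CS1-1 and 10.05, 9.91 and 10.08 in R1. One AH129-N1 array lay within the diploid range, so the kinds overlapped. Dhcr7 fell by 1.07 ± 0.29 on the log2 scale (2.10-fold lower, adjusted p = 0.0183). The call was lost without AH129-5 (-0.85, adjusted p = 0.0726), without AH129-NC1 (-0.89, adjusted p = 0.0998), without CS1-1 (-1.06, adjusted p = 0.103) or without R1 (-1.09, adjusted p = 0.0581). With 1 mean per line, so that the 5 lines were the replicates, Dhcr7, Fdft1 and Tm7sf2 did not pass (adjusted p = 0.206, 0.160 and 0.110), while Msmo1 and Ebp did (adjusted p = 0.0206 and 0.00504).

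Ebp, the sterol isomerase that acts before the last desaturation, went the other way. It lay at 12.33, 12.19 and 12.17 in AH129-5, 12.45, 12.39 and 12.39 in AH129-N1 and 12.34, 12.46 and 12.35 in AH129-NC1. It lay at 10.78, 10.82 and 10.83 in CS1-1 and 10.66, 10.62 and 10.60 in R1. All ahES arrays were high and the 3 haploid lines were alike to within 0.18 log2 units between their means. Ebp rose by 1.62 ± 0.10 (3.08-fold, adjusted p = 7.33e-10), and no left-out line or array ended the call. Nsdhl, the sterol dehydrogenase of the C4 demethylation complex, was at 10.79 to 10.94 on the 9 ahES arrays and at 10.32 to 10.50 on the 6 diploid arrays. It was higher by 0.46 ± 0.11, under 2-fold, with no overlap (adjusted p = 0.00648).

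Ebp and Nsdhl are the only listed genes on the X chromosome. The X chromosome as a whole was higher in ahES cells, with 168 of 454 X-linked genes (37.0%) called higher and a median difference of 0.90, against 1.753% of 12381 autosomal genes with a median of -0.04. Ebp was exceeded by 69 of the X-linked genes, and Nsdhl lay below the X-linked median, with 19.16% of X-linked genes lower still. Among the remaining 15 enzymes of the mevalonate and sterol steps, all autosomal, 13 had negative differences (53.4% of all genes did). Of these 15, 4 were called lower (1.35% of all genes) and none higher (3.0%), and the median was -0.72. By adjusted p alone, 10 of the 15 were lower (5.16% of all genes). Sqle, squalene epoxidase, and Sc5d, the desaturase before Dhcr7, were the autosomal exceptions in sign. Sqle was at 11.71 to 12.01 on the ahES arrays and at 11.54 to 11.67 on the diploid arrays, with no overlap, but its difference of 0.28 ± 0.10 did not pass (adjusted p = 0.0630). Sc5d differed by 0.21 ± 0.17 (adjusted p = 0.520).

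**Figure D3:**
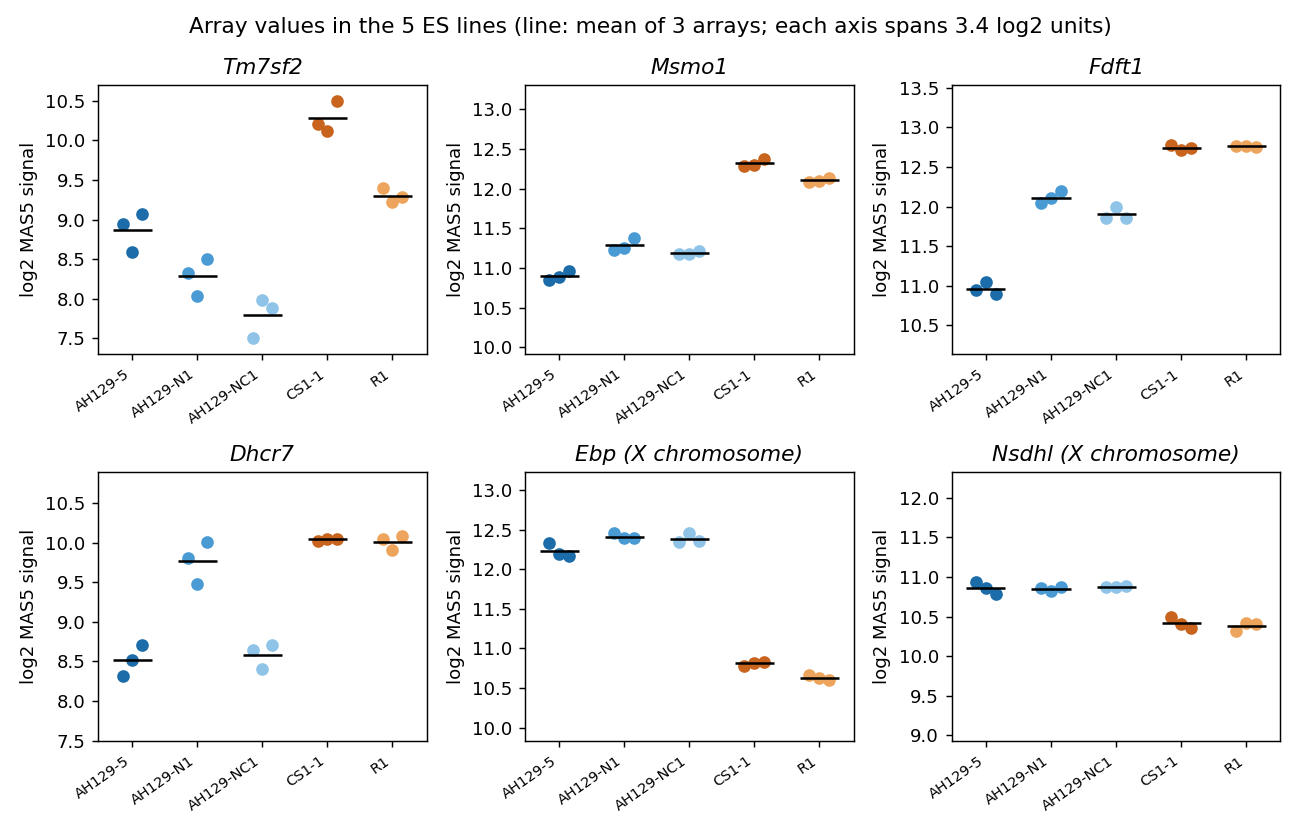
Log2 MAS5 signal (y axis) of 6 sterol enzymes on each of the 15 ES arrays, by line (x axis), with a bar at the mean of the 3 arrays of a line. Tm7sf2, Msmo1 and Fdft1 are lower in all 3 haploid lines than in both diploid lines, Dhcr7 is near the diploid level in AH129-N1, and the X-linked Ebp and Nsdhl are higher in all 3 haploid lines.

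Of the other sterol steps, Lss, which closes the ring of lanosterol, differed by -0.66 ± 0.19 (adjusted p = 0.0224), under 2-fold. A second Lss probe set with signal in every ES line gave -0.27. Its means were 7.98, 7.54 and 7.68 in the haploid lines, 8.56 in CS1-1 and 7.46 in R1, so R1 was lowest. Another Lss probe set, near background in the haploid lines, gave -0.92. The lanosterol demethylase Cyp51 differed by -0.47 ± 0.15 (adjusted p = 0.0527) and the ketosteroid reductase Hsd17b7 by -0.26 ± 0.21 (adjusted p = 0.510), neither of which passed. None of the 4 genes of regulation and transport was called. Srebf2 was at 9.16 to 9.79 on the ahES arrays and 9.90 to 10.40 on the diploid arrays, without overlap, a difference of -0.56 ± 0.18 that passed by adjusted p alone (0.0390). Srebf1 differed by 0.32 ± 0.12 (adjusted p = 0.0951), Insig1 by -0.31 ± 0.13 (adjusted p = 0.149) and the sterol carrier Stard4 by -0.15 ± 0.20 (adjusted p = 0.740). The other Stard4 probe sets gave -0.78 and 0.23. Between ahES and diploid ES cells, probe sets differed in sign for Hsd17b7, Stard4, Acly and Fads2, 4 of 16 genes that could be compared.

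The 6 fatty acid genes did not share the shift. None was called and none passed by adjusted p alone, 5 had small positive differences (46.6% of all genes were positive), and the median was 0.16. Fasn, fatty acid synthase, was at 12.13 to 12.61 on the ahES arrays and 12.09 to 12.26 on the diploid arrays. The ranges overlapped, and the difference was 0.25 ± 0.11 (adjusted p = 0.138). Acly, which makes cytosolic acetyl-CoA for both pathways, differed by 0.04 ± 0.08 (adjusted p = 0.852). Acetyl-CoA carboxylase, Acaca, differed by 0.24 ± 0.22 (adjusted p = 0.583), the desaturase Scd2 by 0.20 ± 0.10 (adjusted p = 0.246), and the polyunsaturated fatty acid desaturases Fads1 and Fads2 by 0.11 ± 0.14 (adjusted p = 0.719) and -0.01 ± 0.16 (adjusted p = 0.995).

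Of related genes outside the list, 1 of 10 tested genes of sterol uptake and efflux was called, the cholesterol exporter Abca1, which was higher by 1.15 ± 0.13 (adjusted p = 1.64e-06). Its ahES arrays lay at 11.74 to 12.22 and its diploid arrays at 10.69 to 11.10. None of 7 tested genes of SREBP processing and further sterol enzymes was called. Their differences ran from -0.56 to 0.95, the highest for an autosomal gene. By adjusted p alone 2 were higher (6.52% of all genes) and 1 lower (5.16%). The X-linked protease gene Mbtps2 had a difference of 0.62 ± 0.16 (adjusted p = 0.0113). Of 21 tested genes of further fatty acid synthesis, the X-linked acyl-CoA synthetase Acsl4 was higher by 1.30 ± 0.20 (adjusted p = 0.000109), and the X-linked Mid1ip1, a partner of acetyl-CoA carboxylase, had 0.80 ± 0.24 (adjusted p = 0.0351), under 2-fold. None of 11 genes of fatty acid oxidation was called.

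Set against each diploid line in turn, with arrays as replicates, the same direction was found for most enzymes; the comparisons share their ahES arrays. Against CS1-1, 5 of the 27 were lower (5.50% of all genes) and 1 was higher (8.12%). The lower genes were Tm7sf2 (-1.96 ± 0.12), Pmvk (-1.19 ± 0.08), Msmo1 (-1.19 ± 0.04), Dhcr7 (-1.09 ± 0.10) and Fdft1 (-1.08 ± 0.04). Against R1, 2 were lower (2.94% of all genes), Fdft1 (-1.10 ± 0.04) and Dhcr7 (-1.06 ± 0.10), and 1 was higher (4.86%). Ebp was the higher gene in both, by 1.53 ± 0.04 and 1.71 ± 0.04. Tm7sf2 and Msmo1 were each at -0.99 against R1, just under 2-fold, with adjusted p = 1.13e-06 and 2.09e-13. Of the 15 autosomal enzymes, 13 were negative against CS1-1 (52.7% of all genes) and 13 against R1 (53.4%). Their medians were -0.77 and -0.65, beside -0.03 and -0.04 over all genes. By adjusted p alone, 21 of the 27 passed against CS1-1 (60.1% of all genes) and 23 against R1 (52.2%). The summed fibroblast marker signal of R1 was within the ahES range and that of CS1-1 was below it, and its part in these differences was not tested further.

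Between the diploid lines themselves, none of the 27 genes was called by limma in CS1-1 minus R1, where 9.87% of all genes were called in either direction. At an unadjusted p under 0.05, 12 were higher in CS1-1 and 2 lower, and the same numbers passed by adjusted p alone, 14 in all (49.7% of all genes). Tm7sf2 came nearest to the threshold at 0.97 ± 0.15 (adjusted p = 2.09e-05), followed by Pmvk at 0.54 ± 0.10 (adjusted p = 0.000147). Without CS1-1 replicate 1, without CS1-1 replicate 2 or without R1 replicate 1, 1 gene was called. CS1-1 was the highest of the 5 ES lines for 11 of the 15 autosomal enzymes. It was so for 28.2% of the 12891 genes tested between ahES and diploid ES cells.

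The haploid lines also differed from each other. AH129-5 was the lowest ES line for 10 of the 15 autosomal enzymes, against 18.4% of the 12891 genes tested between ahES and diploid ES cells. In AH129-5 minus the mean of the other haploid lines, Fdft1 was lower (-1.04 ± 0.05, or 2.06-fold, adjusted p = 9.85e-13) and was the only one of the 27 genes called lower, where 1.45% of all genes were. None was called higher, where 2.72% were. Quantile normalization moved the share of higher among all called genes in this comparison from 65.25% to 50.42%, and Fdft1 stayed called. With the mean over its probe sets, which includes the pair near background, Fdft1 was at -0.66 (adjusted p = 0.00592) and was not called. Below 2-fold, Lss was at -0.68 ± 0.07, Dhcr7 at -0.66 ± 0.10, Hmgcs1 at -0.49 ± 0.04 and Insig1 at -0.48 ± 0.05, whereas Tm7sf2 was at 0.83 ± 0.13. Without a minimum change, 19 of the 27 passed (42.0% of all genes). In AH129-N1 minus AH129-NC1, Dhcr7 was higher by 1.18 ± 0.12 (2.26-fold, adjusted p = 4.44e-07), where 0.977% of all genes were higher, and none of the 27 was lower, where 2.14% were. Without a minimum change, 11 passed (36.2% of all genes). The 3 arrays of AH129-N1 all lay above the 3 of AH129-NC1.

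Of the 17 cholesterol enzymes, Idi1, Fdft1, Lss, Cyp51, Msmo1, Hsd17b7 and Sc5d were called lower in ahES cells than in MEF, and Ebp was called higher. Of the 27 genes, 9 were lower in ahES cells (21% of all genes were) and 1 was higher (21.1%), and the median difference was -0.85, beside 0.08 over all genes tested. By adjusted p alone 23 passed, and so did 76.9% of all genes. All 15 autosomal mevalonate and sterol enzymes had negative differences (47.2% of all genes did), 7 of them called. These groups differed also in strain, medium, serum and sorting, which cannot be told apart from the kind of cell.

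Hsd17b7 had the largest difference. It was at 8.33 to 8.83 over the 9 ahES arrays (median 8.55) and at 11.38, 11.56 and 11.76 in MEF. MEF stood far above every ES array, and ahES cells were 7.87-fold lower (-2.98 ± 0.11, adjusted p = 9.85e-16). One of its other probe sets had the opposite sign, as the probe sets of Hsd17b7, Acly and Scd2 did in 3 of 16 genes that could be compared. Cyp51 was at 10.10 to 10.85 in ahES cells and at 12.57, 12.51 and 12.58 in MEF, 4.01-fold lower in ahES cells. Lss was at 8.35 to 9.13 in ahES cells and at 10.83, 10.76 and 10.98 in MEF, 4.0-fold lower in ahES cells. Lss makes lanosterol and Cyp51 demethylates it, and for neither did the groups overlap. The differences of Sc5d (-1.66 ± 0.09), Msmo1 (-1.61 ± 0.08), Idi1 (-1.42 ± 0.09) and Fdft1 (-1.23 ± 0.05) were smaller and also called.

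Tm7sf2 and Dhcr7, which were called between haploid and diploid ES cells, were at -0.04 ± 0.15 (adjusted p = 0.813) and -0.05 ± 0.15 (adjusted p = 0.781) against MEF. For Dhcr7 the MEF arrays were at 8.65, 9.38 and 8.98, within the ahES range. The differences of Fads1 (-1.09 ± 0.22, adjusted p = 0.000164) and Fads2 (-1.05 ± 0.14, adjusted p = 5.06e-07) were called, so MEF had more of the polyunsaturated desaturases. The X-linked Ebp was higher in ahES cells than in MEF by 1.26 ± 0.06 (2.39-fold). Srebf1 (0.77 ± 0.06) and Acly (0.62 ± 0.04) were higher under 2-fold, Fasn was at 0.24 ± 0.05, and Scd2 was at 0.00 ± 0.23. Outside the list, the lipid carrier gene Apoe (4.81 ± 0.27) and the exporters Abca1 (3.09 ± 0.09) and Abcg1 (1.76 ± 0.17) were higher in ahES cells, 3 of 10 genes of uptake and efflux tested, with none lower.

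Round sperm stood apart from all cultured cells. Of the 27 genes, 21 were higher in ahES cells (40.8% of all genes were), 1 was lower (32.2%) and 5 were not called, with a median difference of 2.42, beside 0.33 over all genes tested. By adjusted p alone 25 passed (89.3% of all genes). The contrast was uneven along the pathway. Fdft1 was higher in round sperm, while Mvk, Idi1 and Sqle among the enzymes, and Srebf2, were within 2-fold of ahES cells. Cyp51 was not called, but its probe sets disagreed.

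**Figure D4:**
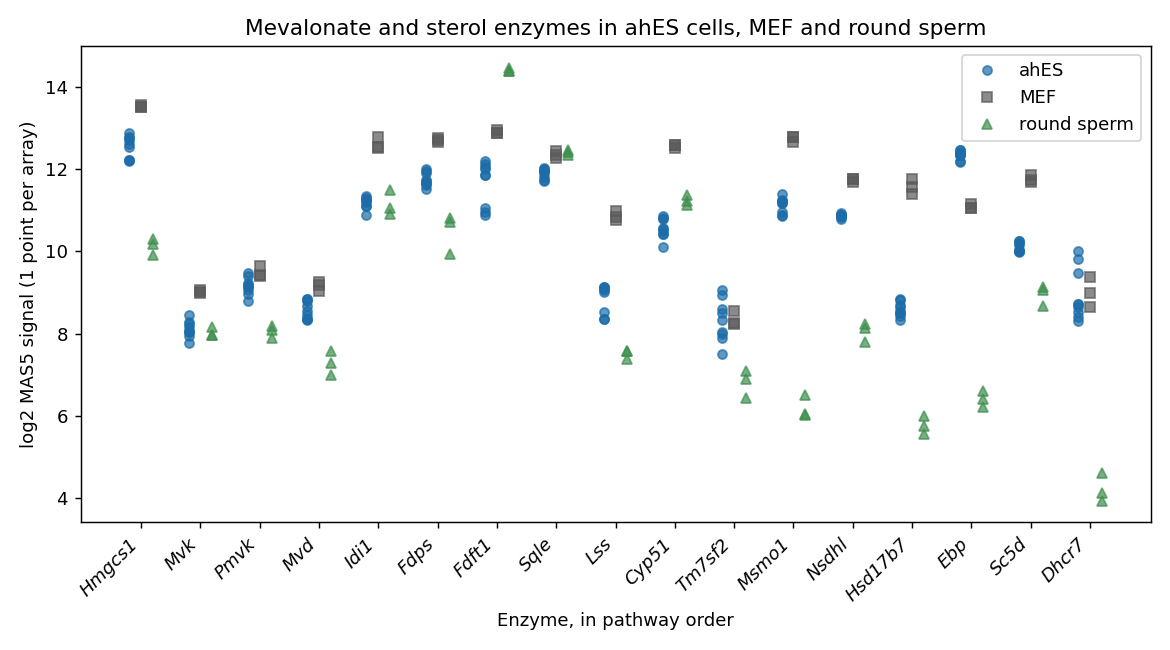
Log2 MAS5 signal (y axis) of the 17 enzymes from Hmgcs1 to Dhcr7 (x axis, in pathway order), 1 point per array, for the 9 ahES arrays (circles), 3 MEF arrays (squares) and 3 round sperm arrays (triangles). Fdft1 in round sperm lies above every other group, at 14.37 to 14.46, while Msmo1, Hsd17b7, Ebp and Dhcr7 in round sperm lie far below.

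Fdft1 was at 14.37, 14.37 and 14.46 in round sperm, at 12.86, 12.86 and 12.94 in MEF and at 10.89 to 12.19 over the ahES arrays. Round sperm were the highest of the 7 groups, with no overlap, and the ahES level was 6.69-fold lower (-2.74 ± 0.05, adjusted p = 1.17e-22). The second Fdft1 probe set with signal, at 14.08 in round sperm, gave -3.36. The epoxidase Sqle, the next enzyme, was at 12.47, 12.40 and 12.34 in round sperm against 11.71 to 12.01 in ahES cells, a difference of -0.51 ± 0.05 under 2-fold (adjusted p = 9.31e-10).

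Cyp51 was at 11.13, 11.37 and 11.22 in round sperm against 10.10 to 10.85 in ahES cells, or -0.69 ± 0.06, but its probe sets did not tell the same story. A second probe set for Cyp51 was at 4.07 in round sperm and at 9.16 to 10.19 in the ES lines, a difference of 5.44 between ahES cells and round sperm. The mean over the 3 Cyp51 probe sets gave 2.02 in place of -0.69, so no direction can be given between ahES cells and round sperm. Against MEF, all 3 Cyp51 probe sets were lower in round sperm (-1.32, -6.53 and -3.20). Idi1 (0.04 ± 0.09, adjusted p = 0.646) and Mvk (0.07 ± 0.12, adjusted p = 0.560) had levels near those of ahES cells, and the probe sets of Mvk differed in sign. The transcription factor gene Srebf2 was at 9.07, 9.06 and 9.25 in round sperm, 0.46 ± 0.08 below the ahES mean.

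The steps after lanosterol were uneven in round sperm. The ahES minus round sperm difference was 1.51 for Tm7sf2 and 1.13 for Sc5d, smaller than for Hmgcs1 (2.42). A second Sc5d probe set with signal in every ES line gave 3.43, so its place in this order depended on the probe set. Cyp51 had no clear direction against ahES cells. Msmo1, Ebp and Dhcr7 differed most and were low in round sperm. Msmo1 was at 6.05, 6.51 and 6.03 there, against 10.85 to 11.38 in ahES cells, 30.4-fold apart (4.92 ± 0.08). Ebp was at 6.61, 6.42 and 6.21 in round sperm, and ahES cells were 60.9-fold higher (5.93 ± 0.07, adjusted p = 8.39e-26). No array of either kind overlapped for these enzymes. Dhcr7 was at 4.14, 4.61 and 3.94 in round sperm, near background, so its fold is a lower bound: ahES cells were at least 10.9-fold higher and MEF at least 11.3-fold higher. Insig1, the sterol sensor partner of SREBP, was 51.1-fold higher in ahES cells (5.68 ± 0.09) and Srebf1 was 15.6-fold higher (3.97 ± 0.06).

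All 6 fatty acid genes were called higher in ahES cells than in round sperm (40.8% of all genes were), with a median of 4.42. Acly was at 8.65, 8.78 and 8.57 in round sperm against 13.30 to 13.59 in ahES cells, 27.4-fold apart (4.77 ± 0.04). Scd2 was at 4.94, 5.97 and 6.94 in round sperm against 14.12 to 14.59 in ahES cells, 346-fold apart (8.44 ± 0.24). Its round sperm arrays were spread widely (SD 1.00) at a low level, so this fold is imprecise. Fads1 lay near background in round sperm, and ahES cells were at least 29.9-fold higher. Acaca differed least, at 1.06 ± 0.13 (2.09-fold). Quantile normalization moved the median of all genes by -0.22 in this comparison. With it, Pmvk, Mvd, Lss, Sc5d and Acaca fell below 2-fold, and 17 of the 27 genes were called in place of 22. Without it, a second probe set with signal in every ES line gave 2.75 for Mvd and 3.30 for Lss. The probe sets used here gave 1.29 and 1.35.

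Compared with MEF, round sperm had 23 of the 27 genes lower (41.8% of all genes were) and 1 higher (34.3%), which was Fdft1 by 1.52 ± 0.06 (2.86-fold, adjusted p = 1.73e-16). The median was -3.34, beside -0.32 over all genes tested, and 26 passed by adjusted p alone (89.7% of all genes). This comparison shares the round sperm arrays with the one before. Msmo1 was 92.6-fold lower in round sperm than in MEF (-6.53 ± 0.09) and Hsd17b7 was 55.5-fold lower (-5.79 ± 0.14). Sqle (0.06 ± 0.06, adjusted p = 0.344), Mvk (-0.98 ± 0.15) and Acaca (-0.72 ± 0.15) were not called. Markers of other testis cells were also read in round sperm. Of 4 measured Leydig cell markers, Cyp17a1 (6.87, its highest group) and Star (6.19) lay above background there, and Cyp11a1 (4.69) and Hsd3b1 (5.10) did not. Their summed signal was 7.89 to 8.36, against 6.95 to 7.70 in MEF and 7.53 to 8.75 in the ES lines. Of 6 Sertoli cell markers 5 lay above background, with a summed signal of 8.93 to 9.29, against 8.42 to 8.60 in MEF. In the ES lines the Sertoli sum was higher, at 12.1 to 13.84, but it was set there mainly by Rhox5, at 11.89 to 13.62. The Sertoli sum therefore cannot tell whether Sertoli signal was particular to round sperm. By single marker, Cldn11 was highest in round sperm (5.67), Sox9 in MEF, and Amh, Rhox5, Gata4 and Aard in an ES line. The Leydig sum of round sperm lay within the range of the ES lines. Spermatocyte markers and the 3' minus 5' difference of Gapdh were raised in the same arrays, and the part of all these in the differences was not tested.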

How the data were processed

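Per the labels, total RNA was amplified, biotin-labelled and hybridised to 21 arrays. The authors deposited log2 signals from MAS5, which is named in the submitters' processing notes; base 2 was inferred from the values, since the 2% trimmed mean signal was 500 on every array. No detection calls or batches were used. Probe sets with 1 gene symbol (34945 of 45101) were kept, and each gene was represented by the set with the highest mean. An offset of 9.70 signal units was added before taking log2 again. Genes with all 3 arrays of a compared group above the 40th percentile of their array were tested with limma 3.58.1 (trend, robust) in R 4.3.3, with Benjamini-Hochberg adjustment over all genes tested and 2-sided tests. For ahES minus diploid ES, the cell line was a random block over 15 ES arrays (statmod 1.5.0, correlation 0.687). Single lines were compared over the same 15 arrays, MEF and round sperm over all 21, with 1 mean per group. A group mean at or below the mean 40th percentile of its arrays was called near background, and folds against it use that percentile. The arrays of a line were labelled biological replicates; p-values between single lines measure only the spread between arrays. The number of arrays, 3 per group, limits the precision. On simulated data with lines that differ, the fit for ahES minus diploid ES recovered most changed genes. It made more false calls than its adjusted p allows, so its calls are also given with 1 mean per line. The other comparisons were simulated without differences between lines, so their few false calls cannot be set against this. Members and lists were chosen with earlier results of these data known. All 27 measured members are reported; other genes are named from fixed lists (up to 4 per list and comparison with the smallest adjusted p among those called, sets of 5 or fewer, and X-linked genes). All 27 passed the filter on low values in each comparison. Replicate numbers did not pair the arrays.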

Additional observations from a re-analysis of the deposited data

Results flagged for a closer look

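Among haploid lines of the same kind, 2 of the 27 genes differed at least 2-fold by a direct test of the line difference, and more passed without a minimum change. Fdft1 was lower in AH129-5 than in the other haploid lines, at -1.04 ± 0.05 (limma, adjusted p = 9.85e-13), on all 3 arrays. The mean over its probe sets, which includes the pair near background, gave -0.66. Dhcr7 was higher in AH129-N1 than in AH129-NC1, at 1.18 ± 0.12 (limma, adjusted p = 4.44e-07), on all 3 arrays.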

How the results depend on the processing

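The count of called genes among the 27 was recomputed with an offset of 32, quantile normalization, no filter, the mean over probe sets, no fold minimum, a replicate block, and each array left out. With no fold minimum the counts rose from 5 to 13 (ahES minus diploid ES), 6 to 21 (minus CS1-1), 3 to 23 (minus R1), 0 to 14 (CS1-1 minus R1), 1 to 19 (AH129-5 minus the others), 1 to 11 (AH129-N1 minus AH129-NC1) and 10 to 23 (minus MEF), since many differences lay under 2-fold. With the mean over probe sets, ahES minus diploid ES gave 3 and AH129-5 minus the others gave 0, and Cyp51 in ahES minus round sperm reversed to 2.02. For ahES minus diploid ES, 1 mean per line gave 2, as did leaving out AH129-5 or CS1-1, with Ebp kept each time. Leaving out 1 array gave 5 to 5 (ahES minus diploid ES), 3 to 5 (minus R1), 0 to 1 (CS1-1 minus R1), 20 to 22 (minus round sperm) and 24 to 25 (round sperm minus MEF). The highest count against R1, 5, came without AH129-N1 replicate 3. In ahES minus round sperm, Fdps (0.98) and Acaca (0.90) fell under 2-fold without round sperm replicate 1, and Sc5d (0.98) without replicate 3. Same-numbered arrays did not deviate together (mean r -0.005 over 63 pairs), and the replicate block changed no count (5 in ahES minus diploid ES). Causes were not tested beyond this. Levels near background in round sperm limit the folds of Dhcr7, Fads1 and Elovl6.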

Other observations

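Genes next to the pathway went both ways between round sperm and ahES cells, where 32.2% of all genes tested were higher in round sperm and 40.8% were lower. Of 11 tested genes of sterol uptake and efflux, 2 were higher in round sperm, the sterol-binding receptor gene Tmem97 (ahES minus round sperm -3.58 ± 0.07, adjusted p = 8.11e-22) and the oxysterol receptor gene Nr1h3, and 7 were lower. Of 21 tested genes of further fatty acid synthesis, 6 were higher in round sperm, among them the malic enzyme gene Me1 (-1.64 ± 0.05), and 14 were lower, among them the elongase Elovl6, which was near background in round sperm and at least 116-fold higher in ahES cells. Of 11 genes of fatty acid oxidation, Cpt2 (-2.69 ± 0.11) and Hadha (-2.50 ± 0.08) were higher in round sperm and 6 were lower, Cpt1a (3.80 ± 0.07) among them.

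Lpin1, a phosphatidate phosphatase of lipid synthesis, also differed among the haploid lines. It was lower in AH129-5 than in the other haploid lines (-2.25 ± 0.11, adjusted p = 7.33e-12) and lower in AH129-N1 than in AH129-NC1 (-1.0 ± 0.13, adjusted p = 8.28e-06). The lipoprotein receptor gene Vldlr was higher in AH129-5 (1.32 ± 0.13, adjusted p = 2.28e-07). The carnitine palmitoyltransferase gene Cpt1a differed between the diploid lines, being higher in CS1-1 than in R1 by 1.22 ± 0.06 (adjusted p = 1.08e-12).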
